A study of Homo sapiens with 3 samples.

Results

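The transcriptomes of H1975 cells that had received either of 2 small interfering RNAs (siRNAs) against HHLA3 were compared with each other, siHHLA3-3 against siHHLA3-1. H1975 is an established human lung adenocarcinoma line that carries mutant EGFR. A gene entered the comparison when its mean level over the siHHLA3-1 and siHHLA3-3 libraries was at least 1 CPM (normalised reads scaled to a common library size), which held for 13902 of the 16662 listed genes. The remaining 2760 genes were below that level. There was 1 library with siHHLA3-1, 1 with siHHLA3-3 and 1 with the control siRNA, siNC. All 3 cultures were transfected at about 70% confluency, spent 6 h in medium without serum and were collected 24 h after return to 10% serum. The labels name no genotype other than the knockdowns, and each library has a batch label of its own, so siRNA and batch cannot be told apart. With no replicates, no p-value is given: every difference describes these libraries, and every interval is a 95% interval for counting error only.

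An siRNA is a short duplex of which one strand, the guide, is loaded into an Argonaute protein and directs cleavage of a transcript to which it pairs along its whole length. The guide's bases near its 5′ end, the seed, can also pair with short matches in the 3′ UTRs of other transcripts and lower them, as a microRNA does. siRNAs of unlike sequence against 1 gene have the target in common and differ in their seeds, which is why they are commonly used side by side. HHLA3 takes its name from association with a long terminal repeat of an endogenous retrovirus of the HERV-H family. The sources used here do not give the sequences of siHHLA3-1 and siHHLA3-3.

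Because the largest block of differences coincided with a short sequence, the sequences are shown first. All 7-base words in the annotated 3′ UTRs were ranked by the mean ratio of the genes that hold them, and GTGAACT had the lowest mean for siHHLA3-3 against siHHLA3-1. The word with the lowest mean for siHHLA3-1 against siNC was CAGAATG. Each sequence below is 30 bases of the transcript strand, 5′ to 3′, from GENCODE release 29, with the word in capitals. The first set shows GTGAACT in HHLA3 itself and in 3′ UTRs of genes that were low with siHHLA3-3, to let the surrounding bases be compared.
HHLA3: ctgagcgattaacctGTGAACTtccttctc
SNN: ctactactgtaatgcGTGAACTaacaaacc
ERG28: gtgtggtgggaacatGTGAACTatgaaact
RTN4: tctgtggaatgcattGTGAACTgtaaaagc
MSMO1: gtatcttgaaactttGTGAACTgacttgct
LDHA: aaaggatcttattttGTGAACTatatcagt
On GRCh38 the 7 bases in HHLA3 lie at chr1:70367810-70367816 on the plus strand, in the last of the 3 exons and in the 3′ UTR. Those in SNN lie at chr16:11676637-11676643 (plus strand), in ERG28 at chr14:75651181-75651187 (minus strand) and in RTN4 at chr2:54972227-54972233 (minus strand). The remaining 2 sites are at chr4:165343011-165343017 in MSMO1 and chr11:18407730-18407736 in LDHA, both on the plus strand. All are in the last exon, within the 3′ UTR.

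The second set shows CAGAATG in HHLA3 and in 3 of the genes that were highest with siHHLA3-3 relative to siHHLA3-1.
HHLA3: tcccgcagaggaatgCAGAATGacgccacg
GPAT3: tgttaatcttttctaCAGAATGattgtctc
KDSR: taaagaacaggattcCAGAATGatcattaa
SNAPC1: taataatgtaaatttCAGAATGtgtctctg
In HHLA3 this word is in the coding part of exon 1, at chr1:70355017-70355023. It lies in the 3′ UTRs of GPAT3 (chr4:83604877-83604883, plus strand), KDSR (chr18:63331483-63331489, minus strand) and SNAPC1 (chr14:61795677-61795683, plus strand). HHLA3 thus held both words, 1 in its coding sequence and the other in its 3′ UTR. Such matches were common. Among 10506 searched genes, 1243 held GTGAACT in the 3′ UTR, and 1546 had CAGAATG in the coding sequence but not in the 3′ UTR. Whether either word pairs with an siRNA strand was not tested. Of 2545 mature human microRNAs in RefSeq (GRCh38.p14), 0 had bases 2 to 8 complementary to GTGAACT and 0 to CAGAATG. Shorter or shifted matches were not searched, and a part of microRNAs was not tested.

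Library totals were between 26950852 and 35069930 reads, lowest with siHHLA3-3, and a count of 3, used as the floor, corresponds to between 0.0845 and 0.110 CPM. Mitochondrially encoded genes took 5.93% to 6.24% of reads, and the 25 reference housekeeping genes had a median log2 ratio of 0.06, with 0 of them past 2-fold. The labels call the cells lung adenocarcinoma cells, and EPCAM, CDH1, KRT7, KRT8, KRT18 and KRT19, which mark epithelium, had between 358 and 1902 CPM over the 3 libraries. NKX2-1, the transcription factor that marks much of lung adenocarcinoma, was present, and the surfactant genes SFTPA1, SFTPA2, SFTPB and SFTPC were not listed. Of 18 markers of immune, endothelial, fibroblast and hepatocyte cells, 5 were listed and passed the filter, and PTPRC, PECAM1, VWF, COL1A2 and ALB were not listed.

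HHLA3 (ENSG00000197568, chr1:70354805-70385339, plus strand, GRCh38) was lower with siHHLA3-3 than with siHHLA3-1. Its level was 5.99 CPM with siNC (192 counts), 1.55 CPM with siHHLA3-1 (55 counts) and 0.735 CPM with siHHLA3-3 (20 counts). The siHHLA3-3 level was 2.11-fold below that of siHHLA3-1, with an interval of 1.24 to 3.71, so the residual transcript differed beyond counting error although both libraries held few reads of it. On the log2(CPM + 1) scale used for all genes the difference was -0.56, since the added 1 shrinks the ratios of low genes. ANKRD13C, which begins 71 bp away on the opposite strand, had 32.2, 26.2 and 29.8 CPM in siNC, siHHLA3-1 and siHHLA3-3. CTH begins 25879 bp downstream and encodes cystathionine gamma-lyase, an enzyme that forms cysteine. It had 7.61, 9.12 and 18.3 CPM in the same order. CTH was therefore highest with siHHLA3-3, 2.00-fold above siHHLA3-1 (1.74 to 2.31).

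Most genes were at similar levels with either siRNA, and the differences past 2-fold lay mainly on the lower side. The log2 ratio of siHHLA3-3 over siHHLA3-1 had a median of 0.00 over the 13902 genes and quartiles of -0.23 and 0.21. At least 2-fold apart were 398 genes (2.86%): 105 were higher with siHHLA3-3 (0.755%) and 293 were lower (2.11%). The counting interval excluded a ratio of 1 for all 398, which the level filter and the 2-fold call nearly fix in advance. With the authors' FPKM in place of scaled counts 50 genes were higher and 158 lower. At 4-fold the lists held 9 higher and 12 lower genes. The asymmetry was in the tails, as 50.4% of genes were above 0 and 49.6% below. The share past 2-fold was 2.60% among genes of 1 to 5 CPM, 3.15% among those of 20 to 100 CPM and 1.36% among the 220 genes of at least 500 CPM.

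**Figure D1:**
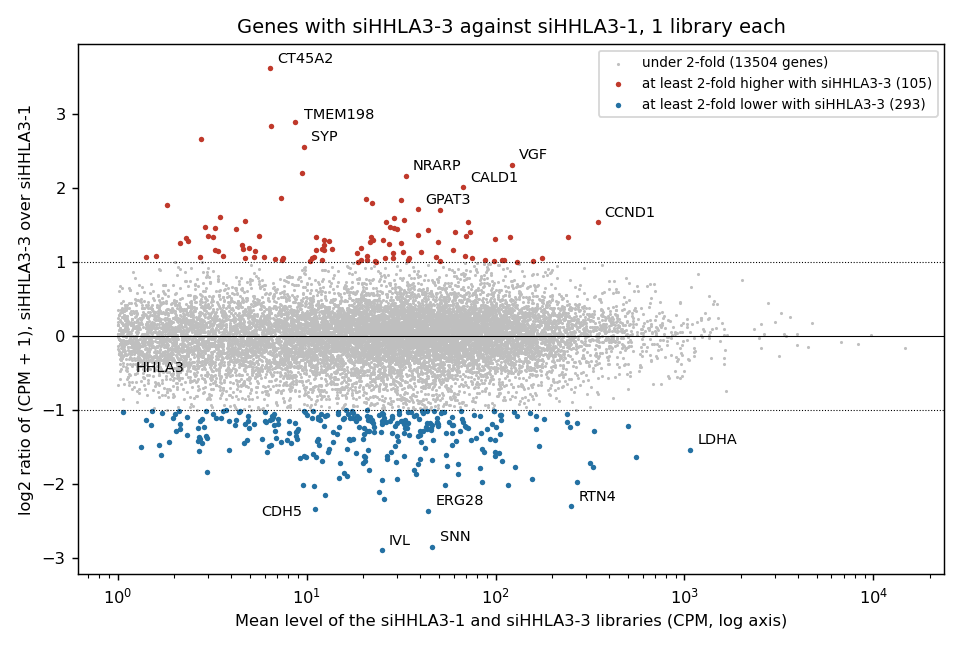
Log2 ratio of (CPM + 1) for siHHLA3-3 over siHHLA3-1 (vertical axis) against the mean level over those libraries in CPM (horizontal log axis), 1 point per gene for 13902 genes, 1 library per siRNA. Red points are the 105 genes at least 2-fold higher with siHHLA3-3 and blue points the 293 at least 2-fold lower; the blue cloud is denser and reaches genes of higher level such as RTN4 and LDHA.

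The genes that were lowest with siHHLA3-3 formed a mixed set in which membrane, trafficking and sterol genes stood beside immune genes. IVL, the cornified envelope protein involucrin, had 19.5, 44.8 and 5.18 CPM in siNC, siHHLA3-1 and siHHLA3-3, an 8.65-fold difference between the siRNAs (7.28 to 10.4). SNN, which encodes the small membrane protein stannin, had 91.9, 82.1 and 10.5 CPM in that order and was 7.79-fold lower (6.90 to 8.82). These 2 genes differ in how the control sits: for IVL the siNC level lay between the siRNAs, whereas for SNN it was close to siHHLA3-1. ERG28, a scaffold of sterol demethylation in the endoplasmic reticulum, had 69.4, 74.3 and 13.7 CPM and was 5.42-fold lower (4.86 to 6.06). RTN4, the reticulon known as Nogo that shapes the endoplasmic reticulum, had 426, 418 and 84.4 CPM and was 4.96-fold lower (4.75 to 5.18). TRIM2, a ubiquitin ligase, had 39.7, 42.9 and 8.59 CPM and was 5.00-fold lower (4.35 to 5.76). In ERG28, RTN4 and TRIM2, as in SNN, siNC and siHHLA3-1 lay near each other and siHHLA3-3 alone was low.

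In other lower genes siHHLA3-3 was likewise the lowest of the 3 libraries. MSMO1, the sterol C4-methyl oxidase of cholesterol synthesis, had 160, 187 and 45.7 CPM in siNC, siHHLA3-1 and siHHLA3-3 and was 4.09-fold lower with siHHLA3-3 than with siHHLA3-1 (3.84 to 4.34). AP2B1, the beta subunit of the clathrin adaptor AP-2, had 575, 432 and 109 CPM and was 3.96-fold lower (3.81 to 4.12). JPT1 had 259, 247 and 64.4 CPM and was 3.84-fold lower (3.65 to 4.05). FBXO32, the F-box protein atrogin-1, had 338, 506 and 148 CPM, a 3.41-fold difference (3.30 to 3.53), with siNC between the siRNAs. ALDH9A1, an aldehyde dehydrogenase, GALNT7, a glycosyltransferase that starts O-linked glycans, and RAB8B, a small GTPase of vesicle traffic, had ratios of -2.02, -1.97 and -1.95 on the log2 scale. Their siHHLA3-3 levels were 20.7, 33.8 and 9.70 CPM, against 86.9, 135 and 40.2 CPM with siHHLA3-1 and 95.2, 159 and 36.2 CPM with siNC. LDHA, the lactate dehydrogenase subunit that ends glycolysis, had 2196, 1593 and 548 CPM and was 2.91-fold lower (2.85 to 2.96).

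Other genes among the 15 lowest had their highest level with siHHLA3-1. TNFSF10, the death ligand TRAIL, had 3.02, 15.9 and 3.20 CPM, so siNC and siHHLA3-3 were alike and siHHLA3-1 was 4.96-fold above siHHLA3-3 (3.95 to 6.29). CDH5, the cadherin of endothelial junctions, had 7.95, 19.2 and 3.01 CPM, while PECAM1 and VWF, which define endothelium, were not listed. VTCN1, the checkpoint ligand B7-H4, had 12.0, 21.0 and 3.97 CPM. GBP2, an interferon-inducible GTPase, had 17.7, 39.7 and 8.41 CPM. POU2F3, the transcription factor of tuft cells, had 10.0, 18.2 and 3.75 CPM. In these last 4 genes siHHLA3-1 was above siNC and siHHLA3-3 below it.

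**Figure D2:**
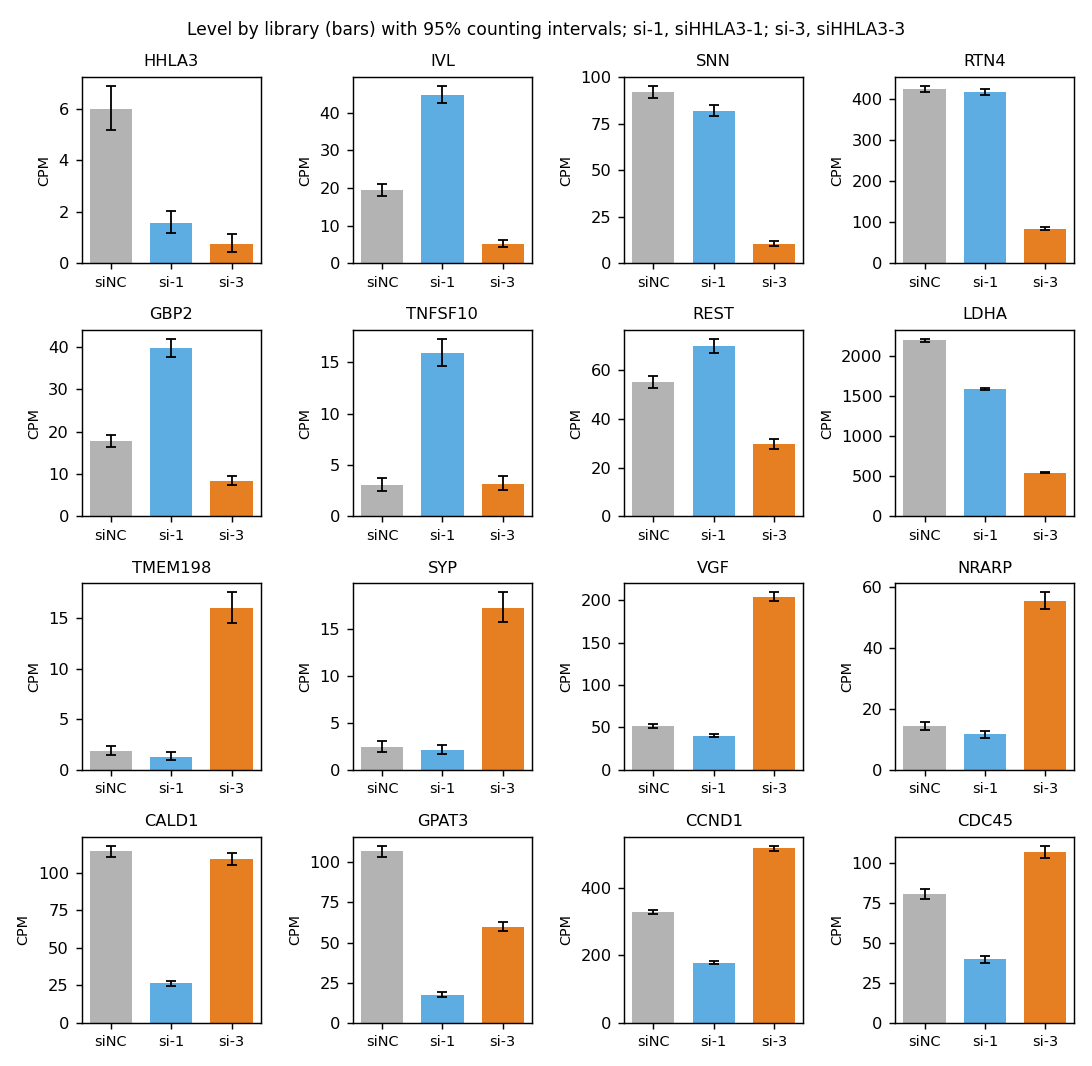
Levels of 16 genes in CPM (vertical axes, each from 0 and to its own scale) in the siNC, siHHLA3-1 (si-1) and siHHLA3-3 (si-3) libraries, 1 bar per library with exact 95% Poisson counting intervals. SNN, RTN4 and LDHA were low with siHHLA3-3 alone, VGF, SYP, TMEM198 and NRARP were high with siHHLA3-3 alone, and CALD1 and GPAT3 were lowest with siHHLA3-1.

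Of the genes that were highest with siHHLA3-3, 4 belonged to the list of neuronal and synaptic genes. The list was drawn up with earlier results of these data known, so the overlap is no test of a neuronal pattern. TMEM198, a membrane protein linked to Wnt co-receptor signalling, had 1.84, 1.30 and 15.98 CPM in siNC, siHHLA3-1 and siHHLA3-3, a 12.3-fold difference between the siRNAs (9.09 to 17.1). TMEM198 overlaps CHPF on the opposite strand, and CHPF had 235, 253 and 306 CPM. The strand setting of the counting is not known, so the TMEM198 reads are uncertain. SYP, the synaptic vesicle protein synaptophysin, had 2.43, 2.11 and 17.3 CPM and was 8.19-fold higher (6.41 to 10.6). VGF, a neuropeptide precursor, had 51.4, 40.2 and 204 CPM and was 5.07-fold higher (4.79 to 5.38). BSN, the presynaptic scaffold bassoon, had 7.92, 9.41 and 35.1 CPM and was 3.73-fold higher (3.29 to 4.24). For all 4, siNC and siHHLA3-1 lay close together and siHHLA3-3 alone was high. REST, the repressor of neuronal genes in other tissues, had 55.1, 69.9 and 29.6 CPM and was 2.36-fold lower with siHHLA3-3 than with siHHLA3-1 (2.18 to 2.56). Of 45 neuronal and synaptic genes, 24 passed the filter, and their median log2 ratio was 0.21, with 17 above 0 and 7 below 0. Past 2-fold were those 4 on the higher side and REST on the lower (20.8% together, against 2.86% over all genes). Of 7 neuroendocrine markers, SYP alone passed, and CHGA and INSM1 were not listed. A part of REST in these levels was not tested.

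NRARP, a feedback inhibitor of Notch signalling, had 14.3, 11.6 and 55.5 CPM and was 4.78-fold higher with siHHLA3-3 (4.28 to 5.34). LPAR6, a receptor for lysophosphatidic acid, had 8, 30 and 332 counts, or 0.249, 0.845 and 12.2 CPM, and was 14.4-fold higher (9.92 to 21.7). LPAR6 lies within RB1 on the opposite strand, and RB1 had 48.3, 27.4 and 45.4 CPM. SNAPC1, a subunit of the complex that activates transcription of small nuclear RNA genes, had 19.0, 13.3 and 50.0 CPM and was 3.75-fold higher (3.38 to 4.17). GDAP1, a mitochondrial outer membrane protein, had 16.3, 13.9 and 44.0 CPM and was 3.16-fold higher (2.84 to 3.52). HIF1A-AS3, an antisense RNA to HIF1A, was 3.91-fold higher (3.43 to 4.47) while HIF1A itself had a log2 ratio of -0.23. The sources used here do not say whether counting used strand, which leaves the reads of overlapping genes uncertain.

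In a further set siHHLA3-1 was the lowest of the 3 libraries. CALD1, the actin-binding protein caldesmon, had 114, 26.3 and 109 CPM in siNC, siHHLA3-1 and siHHLA3-3, a 4.15-fold difference between the siRNAs (3.86 to 4.47). GPAT3, an acyltransferase at the start of glycerolipid synthesis, had 107, 17.6 and 59.8 CPM and was 3.40-fold higher with siHHLA3-3 (3.10 to 3.74). SOWAHC had 153, 67.3 and 172 CPM and was 2.55-fold higher (2.43 to 2.68). The 3′ UTR of SOWAHC held 1 GTGAACT and 1 CAGAATG. KDSR, the reductase of sphingolipid synthesis, had 46.2, 23.4 and 78.7 CPM and was 3.36-fold higher (3.10 to 3.65), with siNC between. Low CALD1 was thus found with siHHLA3-1 alone. SMN1 and CT45A2 also belonged to this set, and each has closely similar copies, between which the counting may have divided the reads. SMN1 had 41.6, 16.1 and 49.5 CPM beside 13.5, 10.9 and 18.0 CPM for its copy SMN2. CT45A2, of a family of cancer-testis antigens, had 266, 4 and 345 counts, whereas of its copies CT45A1 had 2543, 2564 and 2334 counts and CT45A6 had 0, 1 and 150, so the CT45A2 ratio is uncertain.

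The word GTGAACT was found in a large share of the genes that were lower with siHHLA3-3. Annotated 3′ UTRs could be searched for 10506 of the 11245 genes that averaged 5 CPM or more (93.4%), on the transcript strand only, and 13817 words were each held by at least 200 genes. GTGAACT was held by 1243 genes (11.8%), and their mean log2 ratio for siHHLA3-3 over siHHLA3-1 differed from that of the other genes by -0.29, rank 1 of the 13817 words from the lowest. The next words on that side, TGAACTA and TGTGAAC, overlap it by 6 bases and stood at -0.20 and -0.18. On the higher side GGACGGT led with 0.07, so the ranking was far from symmetric. Among the searched genes 238 were at least 2-fold lower (2.27%), and 118 of those 238 held GTGAACT (49.6%). Of the 74 at least 2-fold higher (0.704%), 5 held it (6.76%). As the word was chosen from these ratios, the counts describe the contrast and are no test of it. Without the carriers of GTGAACT and of GGACGGT, 98 higher and 170 lower genes remained of 12354.

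The ratio followed the number, place and flank of the word. Genes with 0, 1, 2 and at least 3 copies numbered 9263, 1095, 130 and 18 and had median log2 ratios of 0.03, -0.18, -0.33 and -0.37. The share at least 2-fold lower was 1.30%, 8.22%, 18.5% and 22.2% in the same order, the last from 18 genes only. Carriers had longer 3′ UTRs, with a median of 3069 bases against 1273 bases for genes without the word. When genes were split by 3′ UTR length into 3 equal classes, carriers had a median of -0.31 against 0.04 for the others in the shortest class, -0.25 against 0.04 in the middle class and -0.17 against 0.01 in the longest. The 924 genes with the word in the coding sequence but not in the 3′ UTR had a median of -0.08, and the 68 with it in the 5′ UTR alone had 0.04. Single copies followed by A or T had medians of -0.26 and -0.24, and those followed by G or C of -0.11 and -0.09. Genes with the word therefore stood lowest when it was in the 3′ UTR, repeated, or followed by A or T.

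**Figure D3:**
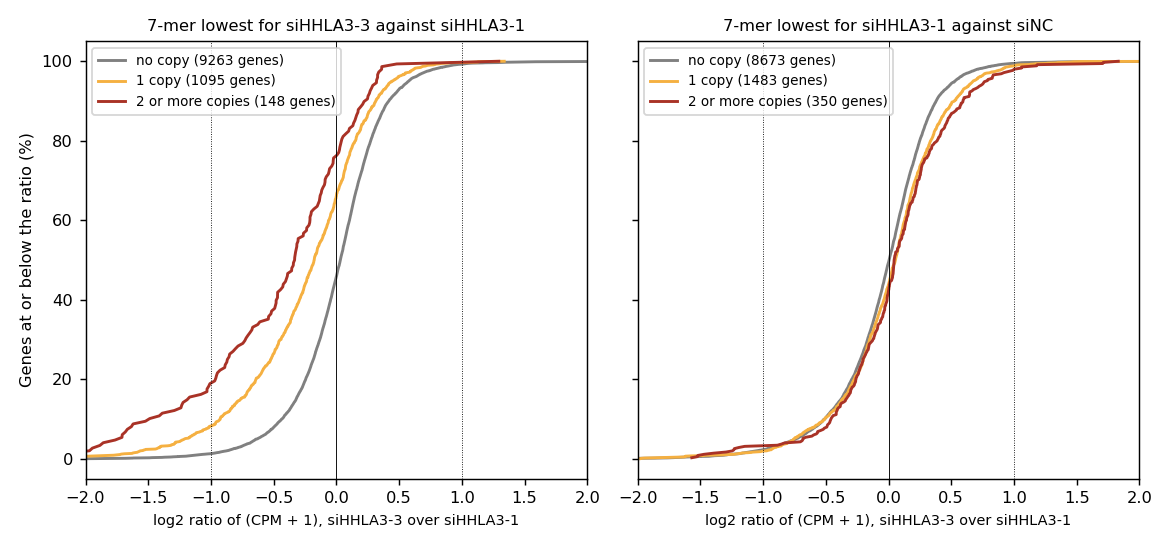
Cumulative share of genes (vertical axis, percent) at or below a given log2 ratio of siHHLA3-3 over siHHLA3-1 (horizontal axis) by copies of GTGAACT (left panel) and of CAGAATG (right panel) in the annotated 3′ UTR, for 10506 genes. Genes with 1 or with 2 or more copies of GTGAACT lie to the left of genes with no copy, whereas the CAGAATG curves nearly overlap below 0 and lie slightly to the right above it.

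Set against siNC, each word ranked lowest with a different siRNA. The mean log2 ratio of GTGAACT carriers differed from that of the other genes by -0.30 for siHHLA3-3 over siNC (rank 1 from the lowest) and by -0.02 for siHHLA3-1 over siNC (rank 4466). These contrasts share the siNC library with each other and the siHHLA3 libraries with the main contrast. CAGAATG was held by 1833 genes (17.4%), with -0.11 for siHHLA3-1 over siNC (rank 1), -0.05 for siHHLA3-3 over siNC (rank 4629) and 0.06 for siHHLA3-3 over siHHLA3-1 (rank 6 from the highest). Of the 74 searched genes at least 2-fold higher with siHHLA3-3, 26 held CAGAATG (35.1%), and of the 238 lower genes 39 did (16.4%). Genes with GTGAACT alone had a median of -0.24 for siHHLA3-3 over siHHLA3-1, those with CAGAATG alone 0.08, those with both -0.07 and those with neither 0.02. Among the 15 lowest genes, 11 held GTGAACT in the searched 3′ UTR, with 3 copies in SNN and TRIM2, and CDH5, GBP2, POU2F3 and AP2B1 did not. Of the 15 highest genes, 13 had a searched 3′ UTR and 4 held CAGAATG, with 2 copies each in GPAT3, KDSR and SNAPC1 and 1 in SYP.

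The largest group differences on the higher side were in genes of growth factor output, DNA replication and the amino acid response. The EGFR and MAPK list, whose members are transcribed downstream of the receptor and ERK kinases, had 25 genes above the filter and a median log2 ratio of 0.60, against 0.00 over all genes. Of these, 20 were above 0 and 5 below, and 2-fold was reached by 7 on the higher side and 1 on the lower. That was 32.0% past 2-fold, against 2.86% of all genes, of which 50.4% were above 0. CCND1, the cyclin D1 that drives G1, had 328, 177 and 516 CPM in siNC, siHHLA3-1 and siHHLA3-3 and was 2.91-fold higher with siHHLA3-3 (2.82 to 3.00). FOSL1, an AP-1 transcription factor, had 165, 136 and 347 CPM and was 2.55-fold higher (2.46 to 2.64). For CCND1 the siNC level lay between the siRNAs, and for FOSL1 it lay near siHHLA3-1. Among ligands of EGFR, AREG had 15.2, 12.0 and 31.9 CPM, EREG 70.7, 56.5 and 141 CPM and TGFA 28.9, 18.2 and 44.9 CPM, all highest with siHHLA3-3. HBEGF, another ligand of EGFR, went the other way with 8.29, 12.4 and 4.92 CPM, and its 3′ UTR held 1 GTGAACT. The ETS factors ETV4 and ETV5, which ERK signalling induces, had log2 ratios of 1.03 and 1.05, and the feedback inhibitors SPRY2 and SPRY4 of 0.20 and 0.93.

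Genes of DNA replication and the G1/S transition were nearly all higher with siHHLA3-3 than with siHHLA3-1. The 50 measured genes had a median of 0.60, with 46 above 0 and 3 past 2-fold, all higher (6.0%, against 2.86% past 2-fold over all genes). CDC45, which unwinds DNA in the replicative helicase, had 80.6, 39.7 and 107 CPM and was 2.70-fold higher (2.53 to 2.88). MCM3, a helicase subunit, had 172, 114 and 239 CPM and was 2.09-fold higher (2.01 to 2.17). CCNE1, the cyclin of S-phase entry, had 18.5, 24.8 and 15.02 CPM, lowest with siHHLA3-3. Relative to siNC the list's median was 0.13 with siHHLA3-3 and -0.50 with siHHLA3-1, so most of the difference lay in lower levels with siHHLA3-1. The 46 genes of G2/M and mitosis had a median of 0.42 with 44 above 0 and 0 past 2-fold, and medians against siNC of -0.19 with siHHLA3-3 and -0.67 with siHHLA3-1. MKI67, the proliferation marker Ki-67, had 848, 498 and 815 CPM, and CCNA2, the cyclin of S and G2, had 107, 52.1 and 101 CPM, both lowest with siHHLA3-1. CDC25B, a phosphatase that activates mitotic kinases, was the lowest of the list at -0.60.

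Genes of protein synthesis capacity leaned the same way by smaller amounts. All 31 measured genes of MYC and ribosome biogenesis were above 0, against 50.4% of all genes, with a median of 0.43. These 31 genes ranged from 0.05 to 0.95, and 0 were past 2-fold, near the 2.86% over all genes. RRS1, a ribosome assembly factor, had 155, 70.5 and 137 CPM, and NOLC1, a nucleolar phosphoprotein, had 288, 359 and 620 CPM, so the first was low with siHHLA3-1 and the second high with siHHLA3-3. MYC had 360, 338 and 528 CPM. Of 74 cytosolic ribosomal protein genes, 64 were above 0, with a median of 0.10 and a range of -0.23 to 0.39. Chaperones of the cytosol and mitochondria had a median of 0.25 over 27 genes, 21 of them above 0. FKBP4, a co-chaperone of HSP90, had 185, 86.7 and 175 CPM and was 2.01-fold higher with siHHLA3-3 (1.92 to 2.11).

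The ATF4 and amino acid response genes, which cells induce when amino acids are short or eIF2alpha is phosphorylated, had a median of 0.54 over 39 genes. Of these, 34 were above 0 and 3 were past 2-fold, all higher (7.69%, against 2.86% past 2-fold over all genes). DDIT3, the transcription factor CHOP, had 14.4, 21.1 and 56.2 CPM and was 2.66-fold higher (2.43 to 2.90). CHAC1, which degrades glutathione, had 4.12, 7.21 and 19.0 CPM and was 2.63-fold higher (2.26 to 3.07). TRIB3, a pseudokinase that CHOP induces, had 93.1, 136 and 240 CPM, and PPP1R15A, which recruits the phosphatase of eIF2alpha, had 51.7, 79.1 and 151 CPM. In all 4 genes the order was siNC, siHHLA3-1, siHHLA3-3 from low to high. The list's median against siNC was 0.62 with siHHLA3-3 and 0.16 with siHHLA3-1. JDP2, an AP-1 family repressor, had 25.5, 19.9 and 44.9 CPM, and its 3′ UTR held 1 GTGAACT and 1 CAGAATG. SLC38A2, an amino acid transporter, was the lowest of the list at -0.51 and also held 1 GTGAACT. ER unfolded protein response genes, which IRE1, ATF6 and PERK control, had a median of 0.01 over 21 genes and 0 past 2-fold, with XBP1 at 0.98 and DNAJB9 at -0.97. The 3′ UTR of DNAJB9 held 1 GTGAACT. Of 20 cytosolic aminoacyl-tRNA synthetases, 14 were above 0 (median 0.16), with AARS1 at 0.71 and WARS1, which interferon also induces, at -0.74.

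**Figure D4:**
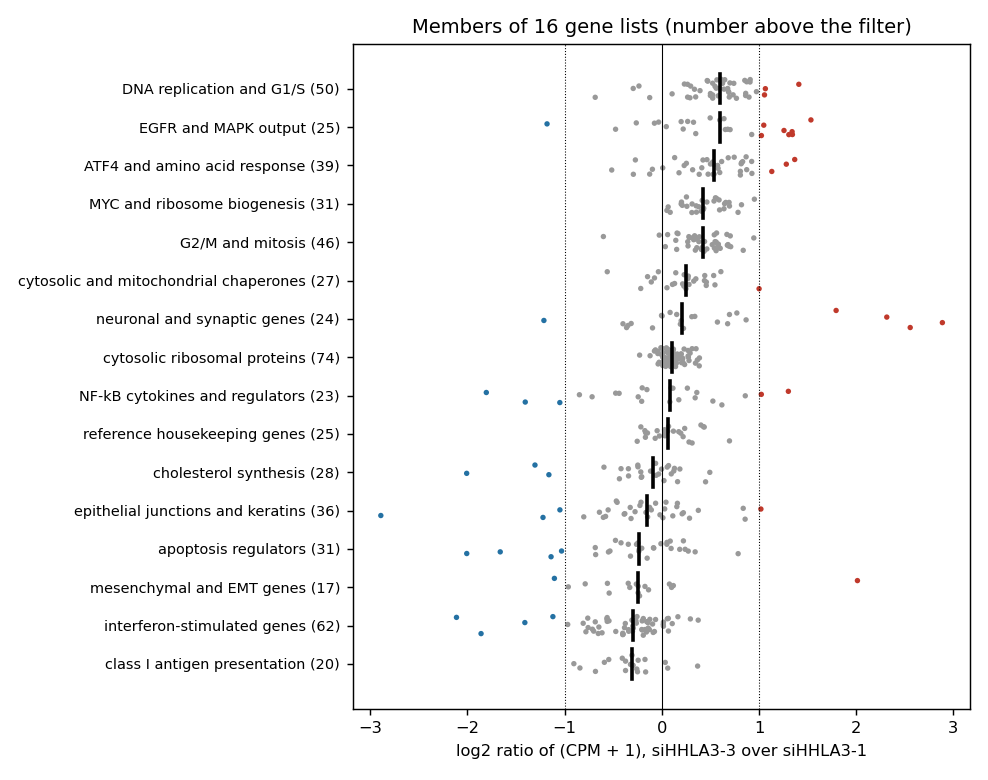
Log2 ratio of (CPM + 1) for siHHLA3-3 over siHHLA3-1 (horizontal axis) for each member above the filter of 16 gene lists (rows, number of members in brackets), with black bars at the list medians and dotted lines at 2-fold. Red and blue points are members at least 2-fold higher or lower; replication, EGFR and MAPK, and ATF4 genes lie mostly to the right of 0, and interferon-stimulated and class I genes mostly to the left.

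Interferon-stimulated genes were mostly lower with siHHLA3-3 than with siHHLA3-1, by small amounts. The 62 measured genes had a median of -0.30, with 52 below 0, 10 above 0, 4 at least 2-fold lower (6.45%) and 0 at least 2-fold higher. Over all genes 49.6% were below 0, 2.11% at least 2-fold lower and 0.755% at least 2-fold higher. GBP1, a guanylate-binding GTPase like GBP2, had 57.1, 145 and 53.9 CPM in siNC, siHHLA3-1 and siHHLA3-3 and was 2.69-fold lower with siHHLA3-3 (2.53 to 2.85). TRIM22, an antiviral ubiquitin ligase, had 13.8, 60.3 and 15.9 CPM and was 3.79-fold lower (3.42 to 4.22). SAMD9L, a restriction factor of poxviruses, had 73.7, 249 and 114 CPM and was 2.18-fold lower (2.10 to 2.28). For GBP1 and TRIM22 the siHHLA3-3 level was near that of siNC. The members were not of 1 kind, as RSAD2, the antiviral enzyme viperin, had 72.4, 187 and 210 CPM and SP110, a nuclear body protein, 171, 254 and 329 CPM, both highest with siHHLA3-3. The list's median against siNC was 0.27 with siHHLA3-3 and 0.62 with siHHLA3-1. Sensors of double-stranded RNA, which detect viral or transfected duplexes, had a median of -0.16 over 14 genes, with IFIH1, the sensor MDA5, at 0.02.

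Class I antigen presentation had a median of -0.30 over 20 genes, with 17 below 0 and 0 past 2-fold (2.86% over all genes). NLRC5, the transactivator of class I genes, had 168, 325 and 202 CPM and was 1.61-fold lower with siHHLA3-3 (1.56 to 1.66). PSMB10 and PSMB9, subunits of the immunoproteasome, had ratios of -0.90 and -0.59, and B2M, the light chain of class I molecules, of -0.17. HLA-E had 293, 446 and 345 CPM, and HLA genes share sequence, so their split is uncertain. TAP1, the peptide transporter, was level at 0.06. In the list of checkpoint and NK ligands, 4 of 20 genes were at least 2-fold lower, VTCN1, LGALS9, RAET1L and PDCD1LG2, and 1 at least 2-fold higher, CD274. Over all genes 2.11% were at least 2-fold lower and 0.755% at least 2-fold higher. The 3′ UTR of VTCN1 held 1 GTGAACT and that of CD274 held 1 GGACGGT. Those of LGALS9, RAET1L and PDCD1LG2 held 0 of either word. CD274, the ligand PD-L1, had 42.5, 58.0 and 119 CPM and was 2.05-fold higher (1.94 to 2.16), whereas PDCD1LG2, the ligand PD-L2, had 6.52, 16.4 and 7.35 CPM. LGALS9, the lectin galectin-9, had 24.9, 60.4 and 17.6 CPM and was 3.44-fold lower (3.11 to 3.81).

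NF-kB cytokines and regulators split in both directions. Of 23 measured genes, 12 were above 0 and 11 below, and past 2-fold were 2 on the higher side and 3 on the lower (21.7% together, against 2.86% over all genes). The median was 0.08, and its sign turned when the filter was set at 5 CPM or on all 3 libraries. CCL5, a chemokine for T cells, had 16.8, 33.7 and 8.93 CPM and was 3.77-fold lower with siHHLA3-3 (3.28 to 4.35). CSF1, the macrophage growth factor, had 71.4, 109 and 40.4 CPM, and SOD2, the mitochondrial superoxide dismutase, had 148, 322 and 155 CPM. In the other direction, CXCL2, a neutrophil chemokine, had 5.08, 6.70 and 18.0 CPM and was 2.69-fold higher (2.30 to 3.15), and IL6 had 7.86, 12.5 and 26.4 CPM and was 2.12-fold higher (1.88 to 2.39). The lower genes were highest with siHHLA3-1, and CXCL2 and IL6 were highest with siHHLA3-3. The 3′ UTRs of CSF1 and SOD2 held 1 GTGAACT each, and that of CCL5 held 0.

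The median over 31 apoptosis regulators was -0.23, and 21 of them were below 0. At least 2-fold lower were 4 (12.9%) and at least 2-fold higher 0, against 2.11% and 0.755% over all genes. Besides TNFSF10, these were BMF, a BH3-only protein, with 14.8, 40.9 and 12.2 CPM, CASP10, an initiator caspase, with 18.0, 29.4 and 12.8 CPM, and BIRC2, an inhibitor of apoptosis, with 54.0, 70.0 and 33.8 CPM. All were highest with siHHLA3-1. PMAIP1, the BH3-only protein NOXA, was highest with siHHLA3-3, at 121, 155 and 268 CPM. GTGAACT was present in the 3′ UTRs of 7 of the 31, namely TNFSF10, TNFRSF10B, CASP10, BIRC2, XIAP, BCL2L11 and HRK. The list's median was -0.08 over the 23 genes without GTGAACT or GGACGGT. The first word was chosen for the low ratios of its carriers, so leaving them out tends to raise a median and is no test. With the same carriers left out, the interferon-stimulated list had a median of -0.30 over 60 genes. Class I antigen presentation then had -0.31 over 19 genes, so these lists hardly moved. Among 26 p53 targets the median was -0.02, with TP53INP1 3.56-fold lower (2.91 to 4.39) and CCNG1 2.04-fold higher with siHHLA3-3 (1.94 to 2.15).

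Among metabolic lists, 10.7% of the cholesterol genes and 8.7% of the glycolysis genes were past 2-fold, against 2.86% of all genes. The shares were 4.0% for triglyceride and phospholipid genes, 3.85% for NRF2 and glutathione genes and 2.56% for oxidative phosphorylation, near that over all genes. Cholesterol synthesis had a median of -0.09 over 28 genes, with 18 below 0 and 3 at least 2-fold lower. Besides MSMO1 these were HMGCS1, a synthase early in the pathway, with 279, 330 and 147 CPM, and STARD4, a cholesterol carrier, with 53.3, 83.8 and 33.3 CPM. IDI1, an isomerase of the same pathway, was at 0.49. Glycolysis genes had a median of 0.17 over 23 genes, 18 of them above 0, so that LDHA at -1.54 stood apart from HK2 at 0.64 and PGK1 at 0.44. SLC2A3, a glucose transporter, had 48.2, 43.6 and 93.7 CPM and was 2.15-fold higher (2.02 to 2.29). Nuclear genes of oxidative phosphorylation had a median of -0.07 over 39 genes, and 1, NDUFB5 of complex I, was past 2-fold with 22.3, 20.02 and 7.57 CPM. NDUFB5 held 1 GTGAACT in its 3′ UTR. In the triglyceride and phospholipid list GPAT3 alone of 25 genes was past 2-fold. HMOX1, the heme oxygenase that NRF2 induces, had 1624, 1508 and 2539 CPM, while the median over all 26 NRF2 and glutathione genes was -0.04.

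Genes of epithelial and mesenchymal identity leaned slightly to the lower side. Epithelial junction and keratin genes had a median of -0.15 over 36 genes, with 3 at least 2-fold lower, IVL, MUC16 and TJP3, and CLDN12 at least 2-fold higher. Those were 11.1% of the list, against 2.86% past 2-fold over all genes. MUC16, the mucin that carries CA125, had 624, 701 and 300 CPM and was 2.34-fold lower (2.28 to 2.40). Lung epithelial markers had a median of -0.39 over 9 genes, and NKX2-1 had 65.7, 72.0 and 35.0 CPM, 2.06-fold lower (1.91 to 2.22). The 3′ UTR of NKX2-1 held 1 GTGAACT, and that of MUC16 held 0. The 17 measured mesenchymal genes had a median of -0.24, with COL1A1 2.26-fold lower (1.98 to 2.58; the fibroblast markers COL1A2, DCN, LUM and PDGFRB were not listed), SPARC at -0.96, FN1 at -0.56 and VIM at 0.10, so that CALD1 at 2.01 stood apart. Of the actin contractile genes, 21 of 29 were below 0 (median -0.13), and CALD1 was again the only one past 2-fold (3.45%, near the 2.86% over all genes). In the TGF-beta list ID3, an inhibitor of bHLH factors, had 120, 151 and 59.6 CPM and was 2.53-fold lower (2.39 to 2.67). It was the only one of 28 genes past 2-fold (3.57%, against 2.86% over all genes), and its 3′ UTR held 1 GTGAACT. Among YAP and TEAD targets, AXL, a receptor kinase, was 2.79-fold higher (2.36 to 3.30) and LATS2, a kinase that restrains YAP, 2.45-fold lower (2.25 to 2.67), with a list median of 0.05.

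The 15 measured genes of the small RNA machinery had a median of 0.07 and 0 past 2-fold, near the 2.86% over all genes. AGO2, the Argonaute that cleaves targets, had 82.3, 62.7 and 104 CPM and was 1.66-fold higher with siHHLA3-3 (1.57 to 1.76), and TNRC6B, a partner of Argonaute, was at -0.57. The 3′ UTR of TNRC6B held 1 GTGAACT and 2 CAGAATG, and that of AGO2 held 2 CAGAATG. Immediate early genes had a median of 0.12 over 20 genes, autophagy and lysosome genes of -0.12 over 37, with ATG9B 2.64-fold lower (2.49 to 2.81), and hypoxia targets of 0.09 over 23, a sign that turned at a filter of 5 CPM. Mitochondrially encoded genes were level, with a median of -0.07 over 15.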

How the data were processed

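RNA from 3 H1975 cultures, 1 each with siNC, siHHLA3-1 and siHHLA3-3, was extracted with Trizol, treated with DNase I and taken into Illumina libraries from 1 ug of total RNA, per the labels' protocols. The authors deposited, for each gene and library, whole-number read counts that are not normalised. Their deposited CPM scale those counts to a common library size, per the file headers. The authors' FPKM and TPM, also deposited, correct for gene length as well. The submitters' processing notes give hg19, HISAT2, HISAT, TopHat2 and Bowtie2 without their roles. Which program counted the reads, with which annotation and strand setting, is not given in the sources used here. Gene counts come to the library totals but for 0.305% to 0.355% that no listed gene holds.

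The library totals, recovered from counts and CPM, were scaled with TMM factors (edgeR 4.0.16, R 4.3.3) of 0.978 for siNC, 1.01 for siHHLA3-1 and 1.01 for siHHLA3-3. Ratios are log2 of (CPM + 1) over (CPM + 1), which understates differences of low genes, and folds are ratios of unshifted CPM. Genes averaging 1 CPM or more over both siHHLA3 libraries were kept, and a call needed 2-fold. Intervals are exact binomial (ratios) and exact Poisson (levels), at 95%, for counting error only. No test was run, as each siRNA has 1 library. The named genes are HHLA3 and its neighbours, the 15 lowest and 15 highest genes of at least 5 CPM, the 5 lowest and 5 highest of at least 100 CPM, and members of each list by size of the ratio. Some genes named by this rule are not reported here. SMN2, CT45A1, HIF1A, RB1 and CHPF were added after their values were seen. The 39 gene lists and the genes compared were chosen with earlier results of these data known.

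For 3′ UTRs, the basic protein-coding transcript with the longest 3′ UTR of each gene was taken from GENCODE release 29 (GRCh38, which is not the submitters' build), and 7-base words were searched on the transcript strand. Alternatives were DESeq2 1.42.0 size factors, library totals, a pseudocount of 0.1, TPM, FPKM, thinning of the deeper library, other filters and thresholds, and leaving out carriers of the leading words. The 2-fold call and the counting interval were run on simulated counts that hold Poisson error only. That simulation could not test the normalisation, the word search or variation between cultures. Other steps used pandas 2.3.3, scipy 1.17.1 and numpy 2.4.6 under Python 3.11.15.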

Additional observations from a re-analysis of the deposited data

Results flagged for a closer look

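In 11 of the named genes the siHHLA3 libraries lay on opposite sides of siNC, each at least 1.5-fold away on the log2(CPM + 1) scale, and these differences in direction were not tested. IVL, with a log2 ratio of siHHLA3-3 over siHHLA3-1 of -2.89, CDH5 with -2.33, VTCN1 with -2.14, GBP2 with -2.11, POU2F3 with -2.02, CCL5 with -1.80, CSF1 with -1.40 and STARD4 with -1.30 were above siNC with siHHLA3-1 and below it with siHHLA3-3. KDSR with 1.71, CCND1 with 1.53 and TGFA with 1.26 were below siNC with siHHLA3-1 and above it with siHHLA3-3. IVL, VTCN1 and CSF1 held 1 GTGAACT each in the searched 3′ UTR, KDSR held 2 CAGAATG and TGFA 1, while CDH5, GBP2, POU2F3, CCL5, STARD4 and CCND1 held neither word.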

How the results depend on the processing

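The counts of 105 higher and 293 lower genes stayed within 1.5 times under DESeq2 size factors, library totals, a pseudocount of 0.1, the deposited TPM, thinning, other filters and the added counting interval. Given the level filter and the 2-fold call, the counting interval could hardly change the counts. With the deposited FPKM they were 50 and 158, and with a 1.5-fold threshold 613 and 1085. The lower count was 170 without carriers of GTGAACT or GGACGGT, and 153 without carriers of GTGAACT or CAGAATG, an alternative chosen after seeing the data. Those alternatives test fewer genes, 12354 and 10990. With FPKM the share of GTGAACT carriers at least 2-fold lower was 6.28%, against 9.49%. That comparison was also added after seeing the data, and the cause of the FPKM values was not tested. Of 240 values for named genes under alternatives, 211 stayed within the counting interval and 29 moved without turning sign. List medians of at least 0.1 in size kept their sign under all alternatives run, while those of NF-kB, hypoxia and p53 genes, all nearer 0, turned under 1 or 2. No paired analysis was possible because each siRNA has 1 library, and no library could be left out for the same reason. Depth limits genes of few reads, such as HHLA3 with 55 and 20 counts and CT45A2 with 4 counts in the siHHLA3-1 library.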
